A study of Mus musculus with 18 samples.

Results

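The glucocorticoid receptor gene Nr3c1 and 9 genes known as targets of the receptor were described in the livers of 18 ICR mice. The genes were picked by symbol, and all 10 were found among the 19057 lines of the expression table. They were Nr3c1, Tsc22d3, Fkbp5, Sgk1, Mt1, Mt2, Dusp1, Klf9, Cebpd and Errfi1, and all 10 passed the filter on low values. The study asked whether microbiota from mice dosed with alginate oligosaccharide (AOS) could relieve the effects of a high-fat diet (HFD). The mice were males labelled as 10 weeks old, and 3 livers were sequenced from each of 6 groups. Con mice had a regular diet and saline, and HFD mice had a high-fat diet from 3 weeks of age and saline. Con-FMT and A10-FMT mice had the high-fat diet and were given gut microbiota by mouth, taken from control mice or from mice dosed with AOS at 10 mg/kg. That microbiota was the pooled small-intestinal content of the donors, so the livers of a transplant group share 1 donor pool. The other two groups were given AOS at 10 mg/kg, on the regular diet (AOS) or on the high-fat diet (HFD+AOS); for how long and by which route is not given in the sources used here.

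Glucocorticoids are steroid hormones of the adrenal cortex whose blood level rises and falls over the day and with fasting and stress. Their receptor waits in the cytoplasm, bound to heat shock protein chaperones. With hormone bound, it enters the nucleus and binds DNA at palindromic response elements. In the liver it is known for raising genes of glucose and amino acid metabolism. Other targets restrain the response: Tsc22d3 (GILZ) mediates anti-inflammatory actions, Dusp1 is a phosphatase of MAP kinases, Errfi1 (MIG6) inhibits the EGF receptor, and Fkbp5 lowers the hormone affinity of the receptor. Sgk1 is a kinase of ion transport and cell survival, Klf9 and Cebpd are transcription factors, and Mt1 and Mt2 are metallothioneins, small proteins that bind zinc and copper. Most of these genes also answer to other signals, such as metals, cytokines, insulin or the circadian clock.

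The values were RPKM, read numbers scaled to gene length and library size, and their depth is unknown because no read numbers stand beside them. Summed over genes, a library held 692303 to 806937 RPKM, with 14512 to 14982 genes above 0. The liver label fitted the markers: 8 hepatocyte genes summed to between 49876 and 76917 RPKM in every liver. The third liver of both regular-diet groups lay between the others for most genes on which those stood far apart. Where the first 2 Con livers stood at least 1 log2 unit apart, which 148 genes did, the value of the third fell between theirs for 98% of them. The same held in AOS for 96.5% of 142 genes, and in the other 4 groups for at most 76.8%. Some results on Con and AOS are also given without these libraries. Nothing in the labels says more of how the 3 livers of a group were taken, so p-values measure the spread between these livers only.

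Mt1 and Mt2 lie next to each other on chromosome 8 (GRCm38, plus strand), Mt2 at 94172664 to 94173568 and Mt1 at 94179082 to 94180327, with 5513 bases between them. Their promoters are shown because the genes moved together in these livers. Each window runs from 250 bases before to 50 bases after a RefSeq start (GRCm38.p6). Capitals mark matches, on either strand, to the core of a metal response element (TGCACNC or TGCGCNC) and to a loose form of the glucocorticoid response element (GNACA and TGTNC, 3 bases apart).
Mt1, chr8:94178839-94179138, plus strand: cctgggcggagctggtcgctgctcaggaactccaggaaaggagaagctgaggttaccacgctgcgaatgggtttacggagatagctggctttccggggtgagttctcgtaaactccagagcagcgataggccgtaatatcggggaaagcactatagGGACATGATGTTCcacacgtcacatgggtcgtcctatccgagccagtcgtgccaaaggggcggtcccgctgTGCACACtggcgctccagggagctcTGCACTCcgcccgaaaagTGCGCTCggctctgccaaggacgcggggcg
Mt2, chr8:94172368-94172667, plus strand: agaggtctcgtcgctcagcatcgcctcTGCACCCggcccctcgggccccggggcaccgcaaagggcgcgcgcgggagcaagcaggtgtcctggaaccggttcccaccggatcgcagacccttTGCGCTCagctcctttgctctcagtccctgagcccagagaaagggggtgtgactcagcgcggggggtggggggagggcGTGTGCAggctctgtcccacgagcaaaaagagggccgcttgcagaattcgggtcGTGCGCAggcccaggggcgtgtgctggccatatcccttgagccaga
The metal core matched 3 times for Mt1 and 4 times for Mt2, against a share of 1.97% of all 32851 promoter windows with 3 or more matches and 25.7% with any. The loose glucocorticoid element matched 1 time in Mt1, 94 bases before the start, and was present in 0.475% of all windows. In its strict form (AGAACA and TGTTCT, 3 bases apart) the element was found in 3 windows of 32851 (0.00913%). One of these belonged to a member, at 1 of 6 starts listed for Sgk1 on chromosome 10, where it began 189 bases before the start (capitals).
Sgk1, chr10:21993640-21993939, plus strand: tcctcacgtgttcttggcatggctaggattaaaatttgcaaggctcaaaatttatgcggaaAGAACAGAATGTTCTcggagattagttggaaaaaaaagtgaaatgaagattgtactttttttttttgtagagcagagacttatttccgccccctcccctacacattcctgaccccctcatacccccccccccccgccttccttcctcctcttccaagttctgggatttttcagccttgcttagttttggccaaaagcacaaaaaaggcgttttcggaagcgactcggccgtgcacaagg
Windows were listed for 8 of the 10 members. These matches are a description of letters, and no binding was measured.

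The coding sequences of the metallothioneins (GENCODE M21 transcripts) are shown because reads of near-identical genes could have been counted for both. Capitals mark the bases that differ.
Mt1: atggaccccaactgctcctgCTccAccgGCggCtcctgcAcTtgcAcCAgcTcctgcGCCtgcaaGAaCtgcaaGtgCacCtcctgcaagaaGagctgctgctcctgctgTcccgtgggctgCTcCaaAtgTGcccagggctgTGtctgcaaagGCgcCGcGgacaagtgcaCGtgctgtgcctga
Mt2: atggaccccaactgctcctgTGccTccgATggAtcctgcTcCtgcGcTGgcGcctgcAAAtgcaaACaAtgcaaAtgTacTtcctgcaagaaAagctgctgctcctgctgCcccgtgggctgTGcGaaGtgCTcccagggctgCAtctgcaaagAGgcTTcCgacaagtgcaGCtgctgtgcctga
Both were 186 bases long, and 148 positions (79.6%) were identical. Over whole transcripts, 0 of 515 stretches of 35 bases in Mt1 occurred exactly in Mt2, and 7 matched it within 2 mismatches. In the other direction it was 7 of 477. How reads with several hits were counted is not known, since the sources name different aligners, so reads shared by both genes may count for each.

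Of the 10 members, 1 changed in 1 of 6 comparisons at an adjusted p under 0.05 (limma on log2(RPKM + 1), Benjamini-Hochberg over 10507 genes). Tsc22d3 was lower in HFD+AOS than in HFD livers, a comparison in which 8.75% of all genes were called, 4.17% as higher and 4.58% as lower. There 2 members had an unadjusted p under 0.05, beside 26.2% of all genes. The remaining comparisons called 0 members. For HFD against Con this stood beside 0.381% of all genes, with 2 members and 15.4% of all genes passing before adjustment. A10-FMT against HFD called 6.6% of all genes (2.62% higher, 3.98% lower), and 1 member and 24.5% of all genes passed before adjustment. Con-FMT against HFD called 0.00952%, with 0 members and 6.63% before adjustment, and the groups of 0 members were apart, beside 10.1% of all genes. A10-FMT against Con-FMT called 1.68%, with 1 member and 16.4% before adjustment. AOS against Con called 0.133%, with 3 members and 15.5% before adjustment. The AOS effects on both diets differed for 0 members and 0.504% of all genes, with 3 members and 14.7% before adjustment. Without the third Con and AOS livers, HFD against Con and AOS against Con each called 0 genes. In AOS against Con, 1 member and 920 of 10507 genes then passed before adjustment. For the difference between diets it was 1 member and 939 genes. HFD is the reference of 3 comparisons and Con of 2, so these share livers. The members' median log2 fold change went from -0.07 in A10-FMT against Con-FMT, beside -0.029 over all genes, to 0.16 in AOS against Con, beside 0.066. On this scale the change of weakly expressed genes is understated.

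**Figure D1:**
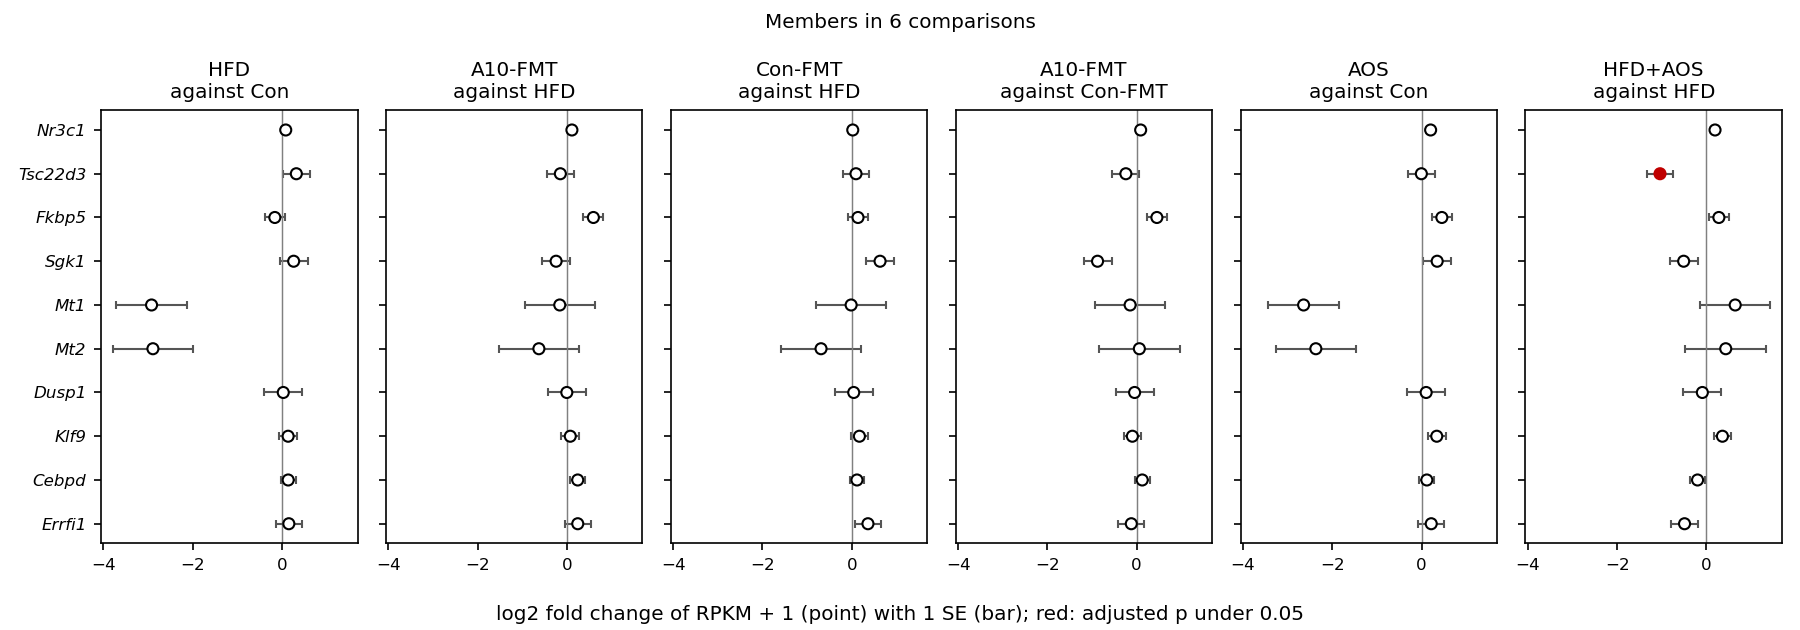
The log2 fold change of RPKM + 1 for each member (rows) in the 6 comparisons (panels), with 1 SE as bars. The red point marks the member with an adjusted p under 0.05, Tsc22d3 in HFD+AOS against HFD, and the bars of Mt1 and Mt2 are the longest.

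The receptor gene itself varied little. Nr3c1 lies on chromosome 18 (39410545 to 39519421, minus strand). Its RPKM was 11.48, 12.94 and 11.64 in Con and 14.04, 14.31 and 13.61 in AOS livers. In HFD it was 13.25, 12.96 and 12.20, and in HFD+AOS 14.34, 15.14 and 14.86. The transplant groups had 13.72, 12.54 and 12.83 (Con-FMT) and 14.23, 14.25 and 13.33 (A10-FMT). The highest liver stood 1.32-fold over the lowest. The spread within groups was an SD of 0.058 log2 units, a value below which lay 0.609% of the genes tested, against a median of 0.13 over all of them.

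Every AOS liver had more Nr3c1 than every Con liver, and every HFD+AOS liver had more than every HFD liver. On the regular diet the means were 14.0 ± 0.353 against 12.02 ± 0.801 (SD, n = 3 each), a log2 of 0.20 (SE 0.063, limma adjusted p = 0.163). On the HFD they were 14.8 ± 0.406 against 12.8 ± 0.542, a log2 of 0.19 (SE 0.063, adjusted p = 0.0682). Neither passed the test. Of all genes, 19.5% lay above Con without overlap in AOS livers, and 13.2% lay above HFD in HFD+AOS livers. In the first comparison 1 of 15 clock genes was called, beside 0.133% of all genes, but 0 genes of any kind without the third Con and AOS livers. In the second, 13 clock genes were called, beside 8.75% of all genes. The AOS effects on both diets differed by a log2 of -0.011 (SE 0.090, adjusted p = 0.969). A10-FMT livers were also all above HFD (0.11, SE 0.063, adjusted p = 0.284), as were 10.0% of all genes. In the order of the group means, HFD+AOS stood above AOS without overlap, and all further neighbours overlapped.

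**Figure D2:**
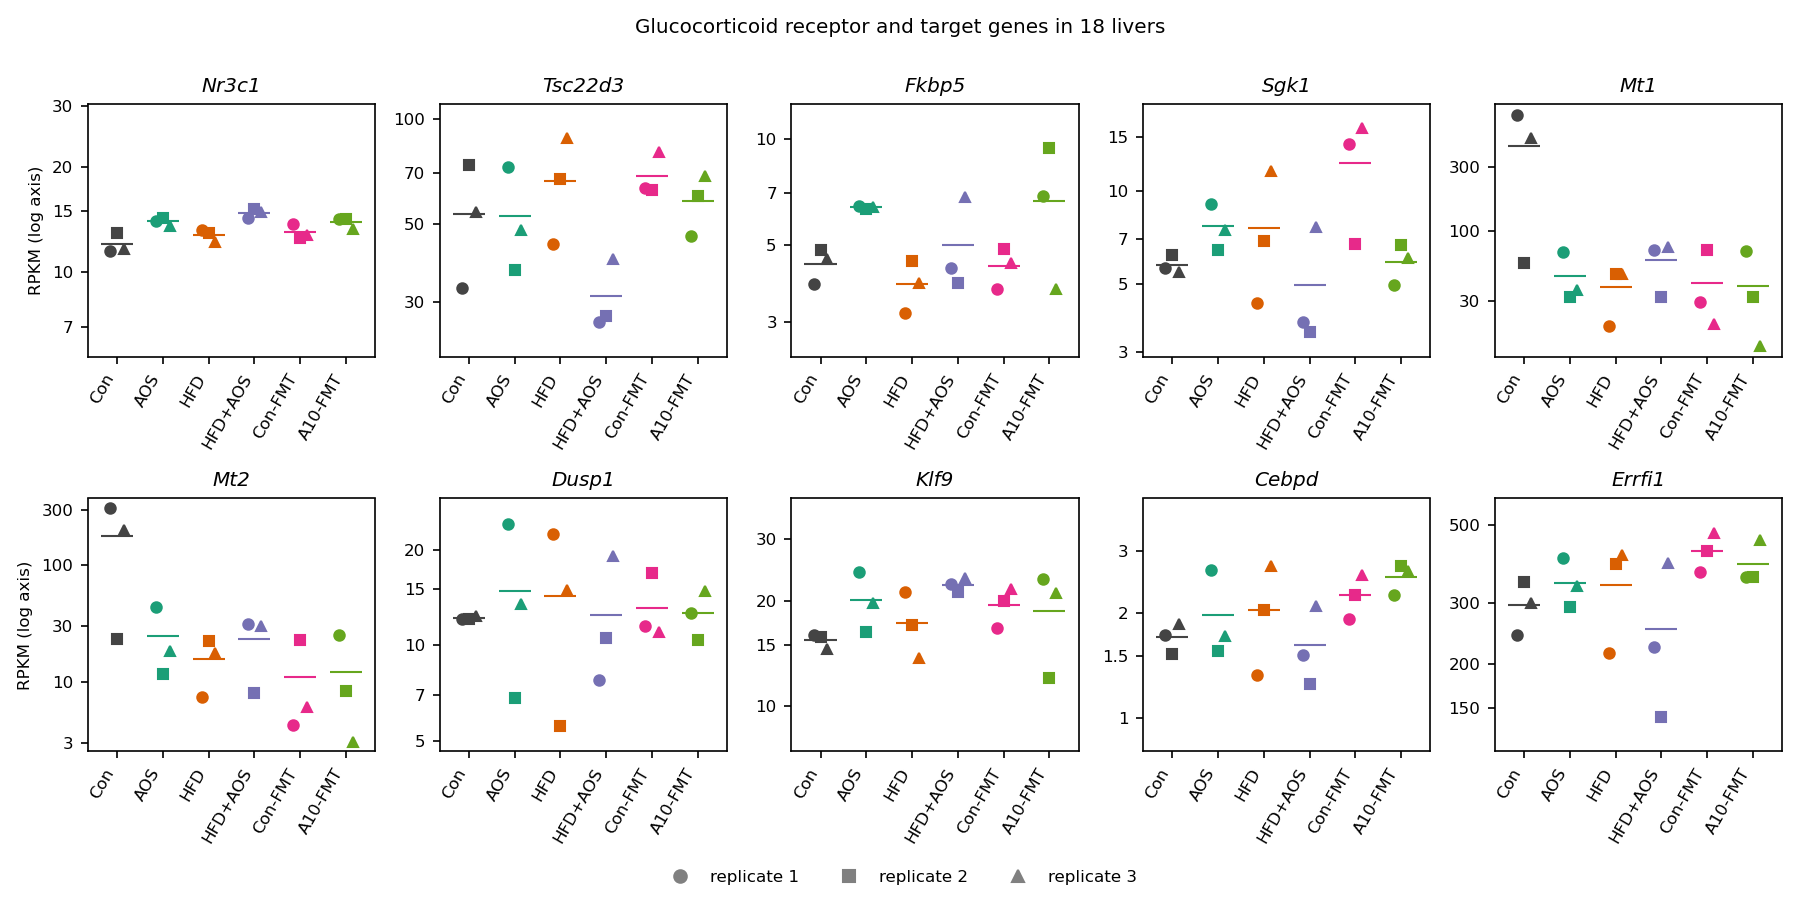
RPKM of the 10 members (log axes) in each liver, by group, with a mark for each replicate and a line at the group mean. Nr3c1 lies within 1.32-fold over all 18 livers, while Mt1 and Mt2 are highest in Con replicates 1 and 3.

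Tsc22d3, the anti-inflammatory mediator, was the member that passed the test. It lies on the X chromosome (140539528 to 140600659, minus strand). Its RPKM was 43.92, 67.40 and 88.06 in HFD and 26.21, 27.31 and 39.89 in HFD+AOS livers. All HFD+AOS livers were below all HFD livers, as for 14.0% of all genes, with 31.1 ± 7.60 against 66.5 ± 22.1 RPKM (SD, n = 3 each). That was 2.13-fold lower, a log2 of -1.04 (SE 0.30, limma adjusted p = 0.0435). The call rested on single libraries: the adjusted p was 0.175 without HFD replicate 3, 0.150 without HFD+AOS replicate 1, 0.113 without HFD replicate 2 and 0.111 without HFD+AOS replicate 2. It was also above 0.05 with no filter on low values (0.0815), with only the HFD and HFD+AOS libraries in the fit (0.0707) and with the third liver of Con and AOS left out (0.0780). The fold change stayed between -1.31 and -0.81 in these and the other alternatives.

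The other 4 groups had higher means than HFD+AOS. The SD was 38.1% and 34.9% of the mean in Con and AOS, and 14.7% and 19.3% in Con-FMT and A10-FMT. Con livers had 32.95, 73.76 and 54.09 RPKM, and AOS livers 73.08, 37.04 and 48.30. Con-FMT livers had 63.40, 62.59 and 80.55, and A10-FMT livers 46.44, 60.10 and 68.82. The lowest Con and AOS livers thus fell inside the range of HFD+AOS, and neighbours in the order of the 6 means overlapped throughout. The lowest transplant liver, at 46.44 RPKM, stood above the highest HFD+AOS liver, at 39.89, a comparison that was not tested. The AOS effect on the HFD minus that on the regular diet was a log2 of -1.04 (SE 0.43, adjusted p = 0.278), which did not pass. The same comparison also held a large shift of the clock genes, whose part in the Tsc22d3 result was not tested. Of 15 clock genes, 13 were called in HFD+AOS against HFD (8 higher, 5 lower), beside 8.75% of all genes. Arntl, the activator of the core loop, was at 12.11, 14.64 and 13.21 RPKM in HFD and at 1.18, 1.23 and 1.32 in HFD+AOS. Ciart, a repressor, went from 0.150 ± 0.087 to 9.24 ± 1.81 RPKM (log2 3.14, adjusted p = 2.81e-07). Hepatocyte markers summed to 68899 to 76917 RPKM in HFD+AOS and 61992 to 71931 in HFD, and the 8 Kupffer cell markers to 103 to 118 and 71.9 to 167. In A10-FMT against HFD, 14 clock genes were called, beside 6.6% of all genes, and Tsc22d3 had a log2 of -0.15 (limma adjusted p = 0.805). These comparisons differ in treatment, and the part of the clock genes was not tested in either.

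Sgk1, Errfi1 and Cebpd went up and down with Tsc22d3 from liver to liver. Over the 18 libraries Pearson's r with Tsc22d3 was 0.817 for Errfi1, 0.711 for Sgk1 and 0.708 for Cebpd (Spearman's rho 0.775, 0.670 and 0.651). Cebpd and Errfi1 had an r of 0.826, and Sgk1 had 0.722 with Errfi1 and 0.600 with Cebpd. These 6 pairs and Mt1 with Mt2 were the 7 of 45 member pairs above 0.5, with a median of -0.02 over all pairs. The libraries are not independent points, since they share groups and the third Con and AOS livers lie between others. Nr3c1 and Tsc22d3 had an r of -0.387, and -0.749 without the Con livers. The 2 pairs below -0.5 over all libraries were Nr3c1 with Mt1 (-0.536) and with Mt2 (-0.510). Without the Con livers both turned positive, with 0.189 for Mt1. The r of Nr3c1 thus depended on which groups were included. HFD+AOS had the highest group mean of Nr3c1 and the lowest of Tsc22d3, and a link within groups was not tested.

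**Figure D3:**
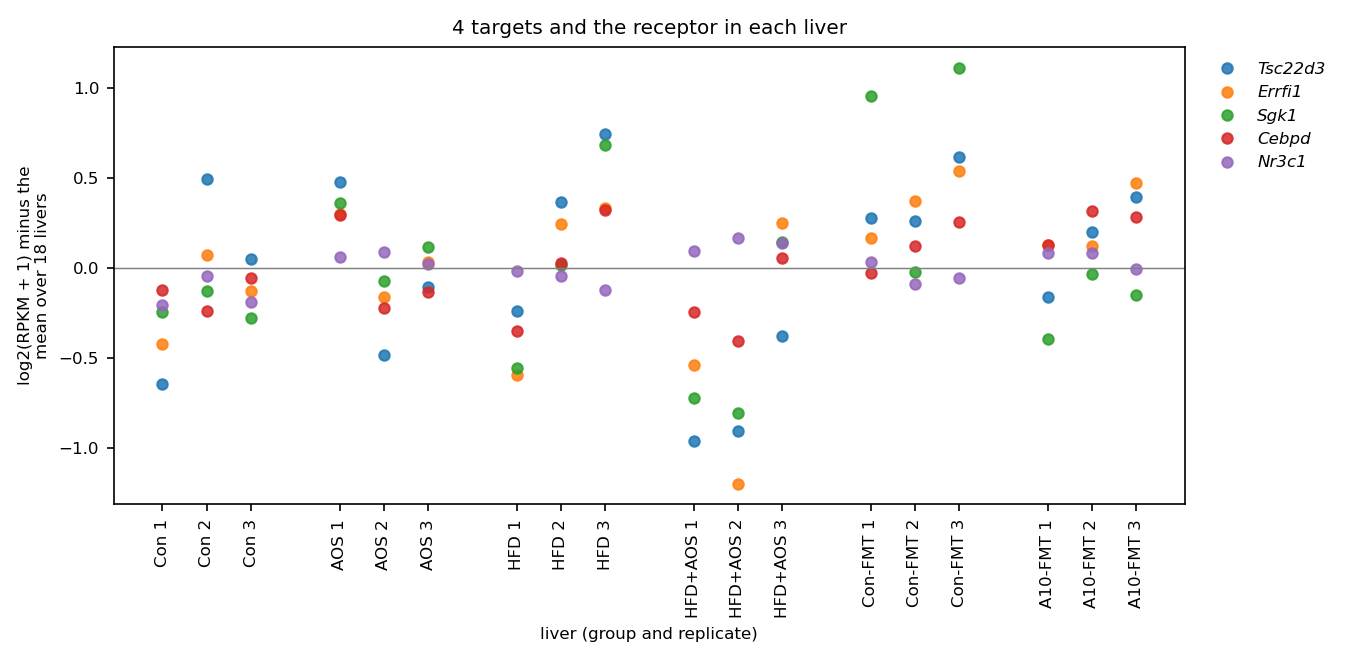
Log2(RPKM + 1) of Tsc22d3, Errfi1, Sgk1, Cebpd and Nr3c1 in each liver, minus the mean of that gene over 18 livers. The 4 targets lie low together in livers such as HFD+AOS replicates 1 and 2 and HFD replicate 1. They lie high together in livers such as HFD replicate 3, Con-FMT replicate 3 and AOS replicate 1, while Nr3c1 stays near 0.

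Sgk1, the kinase, was at 14.21, 6.72 and 15.95 RPKM in Con-FMT and at 4.95, 6.66 and 6.07 in A10-FMT livers. All A10-FMT livers were below all Con-FMT livers, but the closest pair was 6.66 and 6.72. The fold was 2.09 lower, a log2 of -0.88 (SE 0.31, limma adjusted p = 0.180), and 11.2% of all genes were lower in A10-FMT without overlap. Against HFD (4.33, 6.91 and 11.60 RPKM), Con-FMT was higher by a log2 of 0.64 (SE 0.31, adjusted p = 0.742), with overlap. AOS livers (9.08, 6.46 and 7.49) lay above Con (5.62, 6.18 and 5.47), with a log2 of 0.35 (SE 0.31, adjusted p = 0.622). HFD+AOS livers had 3.75, 3.48 and 7.65 RPKM, 2 of them below every other liver.

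Errfi1, the EGF receptor inhibitor, was the most abundant member outside the Con livers with high Mt1. It ranged from 141.44 RPKM in HFD+AOS replicate 2 to 474.51 in Con-FMT replicate 3. HFD+AOS livers had 224.39, 141.44 and 388.63 and HFD livers 215.72, 386.42 and 411.71 RPKM, which overlapped (log2 -0.49, SE 0.29, adjusted p = 0.308). Cebpd, a factor of the acute-phase and fat cell programs, was the least abundant, from 1.25 to 2.72 RPKM. At these levels the depth decides what can be seen, and it is unknown. Its group means went from 1.62 ± 0.430 in HFD+AOS to 2.53 ± 0.246 in A10-FMT (SD, n = 3 each). Neighbours in that order overlapped for both genes.

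Fkbp5, the co-chaperone that damps the receptor, was tight in AOS and wide in A10-FMT livers. Its RPKM was 6.46, 6.33 and 6.39 in AOS and 3.85, 4.83 and 4.54 in Con. It was 6.87, 9.44 and 3.72 in A10-FMT, 3.19, 4.49 and 3.89 in HFD and 3.73, 4.87 and 4.43 in Con-FMT. HFD+AOS livers had 4.27, 3.87 and 6.84. All AOS livers were above all Con livers (log2 0.46, SE 0.22, limma adjusted p = 0.345), as were the AOS livers for 4 of 10 members, Nr3c1, Fkbp5, Sgk1 and Klf9, beside 19.5% of all genes. In A10-FMT, replicates 1 and 2 were above every HFD liver and replicate 3 was not. Adipocyte and lymphocyte markers also differed between these livers and were lowest in replicate 3. The 4 adipocyte genes summed to 28.45, 2.04 and 0.08 RPKM in A10-FMT replicates 1, 2 and 3, against at most 0.47 in any other group. The 6 lymphocyte genes summed to 6.41, 2.9 and 1.2, against at most 2.83. The 8 Kupffer cell markers, at 97.34, 77.86 and 94.78, were lowest in replicate 2. Adipoq and Retn, which define adipocytes, were at 0 in replicate 3. Their part in the Fkbp5 values, and in the other A10-FMT results, was not tested. With all livers the log2 against HFD was 0.60 (SE 0.22, adjusted p = 0.112), and without A10-FMT replicate 3 it was 0.91 (adjusted p = 0.00548). Against Con-FMT it was 0.45 (SE 0.22, adjusted p = 0.323) and 0.77 without that liver (adjusted p = 0.0234).

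Dusp1, the MAP kinase phosphatase, differed more within groups than between them. Con livers were nearly equal at 12.14, 12.09 and 12.41 RPKM, while AOS livers had 24.13, 6.85 and 13.52 and HFD livers 22.39, 5.57 and 14.97. The within-group SD of 0.59 log2 units was above that of 98.6% of the genes tested. The group means lay between 12.2 ± 0.172 and 14.8 ± 8.71 RPKM (SD, n = 3 each), and all 6 overlapped in order. Of 11 immediate early genes tested, which rise within minutes of many stimuli, 0 were called by limma in HFD+AOS against HFD, beside 8.75% of all genes. At an unadjusted p under 0.05 it was 1, beside 26.2% of all genes. Those with the smallest p were Zfp36 (log2 0.67, adjusted p = 0.112) and Atf3 (log2 -0.82, adjusted p = 0.270).

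Klf9, a transcription factor that many glucocorticoid-treated cells raise, was narrower, from 12.05 to 24.20 RPKM. It was 15.97, 15.81 and 14.54 in Con and 24.20, 16.27 and 19.73 in AOS livers, which did not overlap (log2 0.34, SE 0.20, limma adjusted p = 0.426). HFD+AOS livers were at 22.31, 21.15 and 23.19, against 21.27, 17.04 and 13.73 in HFD (log2 0.36, SE 0.20, adjusted p = 0.264). There 1 HFD liver lay inside the HFD+AOS range. A10-FMT livers had 23.15, 12.05 and 21.06, and Con-FMT livers 16.75, 20.02 and 21.70.

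The metallothioneins had the widest range of the members, and 2 of the 3 Con livers stood far above all others. Mt1 was at 736.22, 58.15 and 493.15 RPKM in Con, and Mt2 at 311.46, 23.35 and 199.83. Con replicates 1 and 3 were thus far above replicate 2, which lay inside the range of the livers outside Con, for both genes. In HFD, Mt1 was at 19.66, 48.17 and 47.71 and Mt2 at 7.51, 22.48 and 17.71. The other livers spanned 13.87 to 76.63 RPKM for Mt1 and 3.07 to 43.84 for Mt2. Over 18 livers the highest stood 53.1-fold over the lowest for Mt1 and 101-fold for Mt2, and their within-group SD exceeded that of 99.7% and 99.9% of the genes tested.

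All Con livers were above all HFD livers for Mt1 and Mt2, the 2 of 10 members whose groups did not overlap there, beside 4.67% of all genes that were lower without overlap. The log2 fold change was -2.92 for Mt1 (SE 0.79, limma adjusted p = 0.114) and -2.89 for Mt2 (SE 0.90, adjusted p = 0.154). Neither passed. Without Con replicate 2 both did, at -4.04 (adjusted p = 0.00589) and -4.01 (adjusted p = 0.0263). With the third liver of Con and AOS left out they were -2.51 (adjusted p = 0.425) and -2.49 (adjusted p = 0.456). In AOS against Con the groups overlapped, and the log2 was -2.64 for Mt1 (SE 0.79, adjusted p = 0.152) and -2.37 for Mt2 (SE 0.90, adjusted p = 0.226), and without Con replicate 2 that of Mt1 was -3.76 (adjusted p = 0.0109). The AOS effects on both diets differed by 3.29 for Mt1 (SE 1.11, adjusted p = 0.192), or 4.4 without Con replicate 2 (adjusted p = 0.0225). In the other 4 comparisons the log2 of both genes lay between -0.69 and 0.65.

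Both genes moved together in each liver, with an r of 0.970 over 18 libraries and 0.921 without Con. Mt1 was 1.60 to 6.98 times Mt2, with a median of 2.66. Acute-phase genes, which the liver raises in inflammation, were high in the same Con livers. Saa1 (serum amyloid A) was at 6421.65, 296.14 and 3569.84 RPKM in Con and from 43.18 to 278.36 in the 15 other livers. Lcn2 (lipocalin 2) was at 1043.15, 47.53 and 612.28, and from 6.12 to 48.66 elsewhere. Haptoglobin, Hp, was at 4812.46, 1711.41 and 3653.99, and from 1404.37 to 2317.25 elsewhere. In HFD against Con, where 0.381% of all genes were called, 3 of 12 acute-phase genes fell (Saa1, Saa2 and Lcn2) and 0 rose. Each lost its call without Con replicate 1 and without Con replicate 3, with an adjusted p of up to 0.192, 0.121 and 0.234, and Saa1 and Lcn2 did so without any 1 of the HFD livers too. AOS against Con uses the same Con livers and called 0.133% of all genes. There 1 of the 12 fell, Saa2 (log2 -5.24, limma adjusted p = 0.0221). With single libraries left out, its adjusted p there reached 0.142. The part of the acute-phase genes in the metallothionein values was not tested. The markers of Kupffer cells, the macrophages of the liver, summed to 99.6 to 152 RPKM in Con and 71.9 to 167 in HFD. Con replicate 1, the highest for Mt1 and Mt2, was the lowest Con liver for Tsc22d3, Fkbp5, Errfi1 and Nr3c1. For Klf9 it was the highest Con liver, and for Sgk1, Dusp1 and Cebpd it lay between the others. This is 1 liver, Fkbp5 only ranged from 3.85 to 4.83 RPKM in Con, and a link was not tested. Fewer cells of a type and less RNA per cell cannot be told apart in these whole livers.

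**Figure D4:**
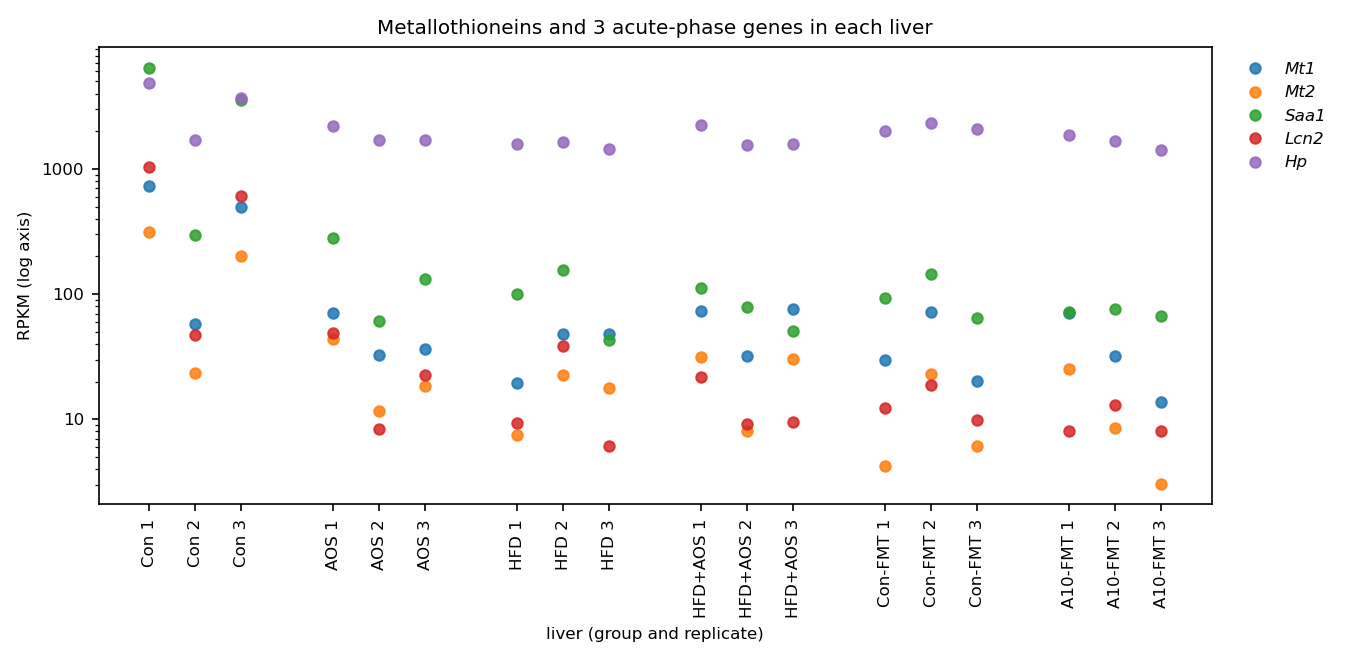
RPKM (log axis) of Mt1, Mt2 and the acute-phase genes Saa1, Lcn2 and Hp in each of 18 livers. All 5 genes are highest in Con replicates 1 and 3, with Mt1 at 736.22 and 493.15 RPKM, against at most 76.63 outside Con.

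Metal handling genes, mostly transporters, were tested beside the metallothioneins. Of 9 metal handling genes, limma called 0 between HFD and Con, beside 0.381% of all genes (4 passed 0.05 before adjustment, beside 15.4%). In HFD+AOS against HFD, where Mt1 and Mt2 were not called, 3 fell and 0 rose, beside 4.58% and 4.17% of all genes. Slc30a10, a manganese exporter, went from 13.7 ± 1.39 to 4.73 ± 0.426 RPKM (log2 -1.36, adjusted p = 0.000307). Slc11a2, the iron importer DMT1, went from 9.71 ± 0.768 to 6.58 ± 0.236 (log2 -0.50, adjusted p = 0.00767). Both calls held in 12 of 12 alternatives. Here and in the counts that follow, the 12 are the alternatives at the same threshold, without the stricter cut-offs of the study. At those cut-offs Slc30a10 was still called and Slc11a2 was not. Slc39a10, a zinc importer, had a log2 of -0.41 (adjusted p = 0.0484), held in 3 of 12 and lost without HFD replicate 2 or 3 or any HFD+AOS liver (up to 0.180). Of the acute-phase genes the fibrinogen chains Fga (log2 -0.60, adjusted p = 0.0302) and Fgg (log2 -0.55, adjusted p = 0.0364) fell, held in 5 and 4 of 12. Both lost the call without HFD replicate 2 or 3 or HFD+AOS replicate 1 or 2, with an adjusted p of up to 0.122 and 0.141, and Fgg without HFD+AOS replicate 3 too. In A10-FMT against HFD, Fga (log2 -0.77, limma adjusted p = 0.00991) and Fgg (-0.69, adjusted p = 0.0131) also fell. With single libraries left out, their adjusted p reached 0.061 and 0.0764. Slc30a10 was called lower there (log2 -1.25), in A10-FMT against Con-FMT (-0.91) and for the difference between diets (-1.36). Its adjusted p with single libraries left out reached 0.00498, 0.103 and 0.0626.

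Around the receptor, 18 genes of its chaperones, cofactors and hormone supply were all tested. In HFD+AOS against HFD, 2 rose and 4 fell, beside 4.17% and 4.58% of all genes. The median log2 was -0.11, beside -0.0075 over all genes. Serpina6, the corticosteroid-binding globulin of blood, was at 440.71, 244.18 and 309.40 RPKM in HFD+AOS and at 100.38, 118.72 and 173.37 in HFD (log2 1.33, SE 0.30, limma adjusted p = 0.0146). Nr3c2, the mineralocorticoid receptor, which also binds corticosterone, was at 2.61, 2.59 and 2.95 against 1.46, 1.60 and 1.70 (log2 0.52, SE 0.086, adjusted p = 0.00212). Of the receptor's chaperones, Hsp90aa1 was at 47.76, 49.88 and 71.22 against 91.07, 186.75 and 189.85 (log2 -1.40, SE 0.31, adjusted p = 0.0133). Stip1, Hsp90ab1 and Fkbp4, which assemble or belong to the same complex, fell by 0.74, 0.67 and 0.52 on the log2 scale (adjusted p = 0.0257, 0.0364 and 0.0370). For all 6 called genes the groups did not overlap, which held for 13.2% of all genes as higher and 14.0% as lower. Nr3c2 held in 12 of 12 alternatives at the same threshold, and 0 of the 6 were called at the cut-offs of the study. Serpina6 held in 10, and was lost without HFD replicate 2 or HFD+AOS replicate 1 (adjusted p up to 0.0767). Hsp90aa1 held in 9, and was lost without HFD replicate 2 or 3 or HFD+AOS replicate 1 (up to 0.0672). Stip1 (7), Hsp90ab1 (5) and Fkbp4 (5) were lost without these livers or HFD+AOS replicate 2, and Fkbp4 without HFD+AOS replicate 3 too, with an adjusted p of up to 0.102, 0.132 and 0.112.

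In A10-FMT against HFD, Serpina6 rose (343.93, 326.29 and 241.13 RPKM, log2 1.23, SE 0.30, limma adjusted p = 0.0239), while the corepressors Nrip1 (log2 -0.38, adjusted p = 0.0321) and Ncor1 (log2 -0.33, adjusted p = 0.0375) fell. Of all genes, 2.62% were called higher there and 3.98% lower. The 3 calls among the partners held in 6, 5 and 3 of 12 alternatives. All 3 were lost without HFD replicate 2 or A10-FMT replicate 1 or 2, Serpina6 also without HFD replicate 1, Nrip1 and Ncor1 also without HFD replicate 3, and Ncor1 also without A10-FMT replicate 3. The adjusted p was then up to 0.0934, 0.124 and 0.136.

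In the other 4 comparisons limma called 0 of the 18 partners. Before adjustment, 15.4% of all genes passed in HFD against Con and 6.63% in Con-FMT against HFD. It was 16.4% in A10-FMT against Con-FMT, 15.5% in AOS against Con and 14.7% for the difference between diets. In HFD against Con 2 passed before adjustment, and the nearest were the coactivator Ncoa2 (log2 0.23, adjusted p = 0.0998), Ncor1 (0.21, adjusted p = 0.262) and Hsd11b1 (0.24, adjusted p = 0.363), which regenerates active hormone in the liver. In Con-FMT against HFD 0 passed before adjustment, with Nr3c2 (log2 0.12), Ncor1 (-0.11) and H6pd (-0.11), which supplies the cofactor of Hsd11b1, nearest at an adjusted p of 0.831 or more. In A10-FMT against Con-FMT 7 passed before adjustment, with Serpina6 (log2 0.92, adjusted p = 0.140), Nrip1 (-0.29, adjusted p = 0.156) and Ncoa2 (-0.16, adjusted p = 0.183) nearest. In AOS against Con 2 did, with Hsd11b1 (log2 0.38, adjusted p = 0.170), Hsp90aa1 (-0.72, adjusted p = 0.278) and the steroid reductase Akr1d1 (0.32, adjusted p = 0.409) nearest. The AOS effects on both diets differed for 0 of the 18 (5 before adjustment), with Nr3c2 (log2 0.53, adjusted p = 0.0654), Ncor1 (-0.37, adjusted p = 0.189) and Stip1 (-0.67, adjusted p = 0.262) nearest.

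Among 30 further glucocorticoid targets of liver, 28 were tested. In HFD+AOS against HFD, 2 rose and 6 fell, beside 4.17% and 4.58% of all genes. The median log2 was -0.012, beside -0.0075 over all genes. Cdkn1a, the cell cycle inhibitor p21, was at 0.91, 0.51 and 0.73 RPKM against 11.99, 11.81 and 16.47 in HFD (log2 -3.06, SE 0.29, limma adjusted p = 1.62e-05). Zbtb16 (PLZF), a factor that glucocorticoids raise in many cells, was at 0.74, 0.55 and 0.67 against 1.84, 1.69 and 2.01 (log2 -0.78, SE 0.15, adjusted p = 0.00523). The metabolic genes Pdk4 (log2 -1.13, adjusted p = 0.00826), Igfbp1 (-2.14, adjusted p = 0.0414), G6pc (-1.58, adjusted p = 0.0137) and Ddit4 (-0.79, adjusted p = 0.0167) fell as well. Pdk4 spares pyruvate, Igfbp1 binds IGF-1, G6pc makes the last step to free glucose and Ddit4 inhibits mTORC1. Glul (glutamine synthetase, log2 0.40, adjusted p = 0.0324) and Tdo2 (tryptophan breakdown, log2 0.55, adjusted p = 0.0454) rose. Cdkn1a, Zbtb16 and Pdk4 were called in 12 of 12 alternatives at the same threshold, and of the 8 genes only Cdkn1a was called at the cut-offs of the study. Ddit4 was called in 10, G6pc in 8, Glul in 5, Igfbp1 in 4 and Tdo2 in 3. Ddit4 and G6pc were lost without HFD replicate 3 or HFD+AOS replicate 1 (adjusted p up to 0.0719 and 0.0706), and G6pc without HFD+AOS replicate 2 too. Glul, Igfbp1 and Tdo2 were lost without HFD replicate 2 or 3 or any HFD+AOS liver (up to 0.122, 0.167 and 0.169). The HFD livers had 11.18, 42.18 and 138.83 RPKM of Igfbp1, with replicate 3 far above the others. Per1 and Tat, both known as quick targets in liver, were not called, at log2 0.92 (adjusted p = 0.145) and -0.64 (adjusted p = 0.171).

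**Figure D5:**
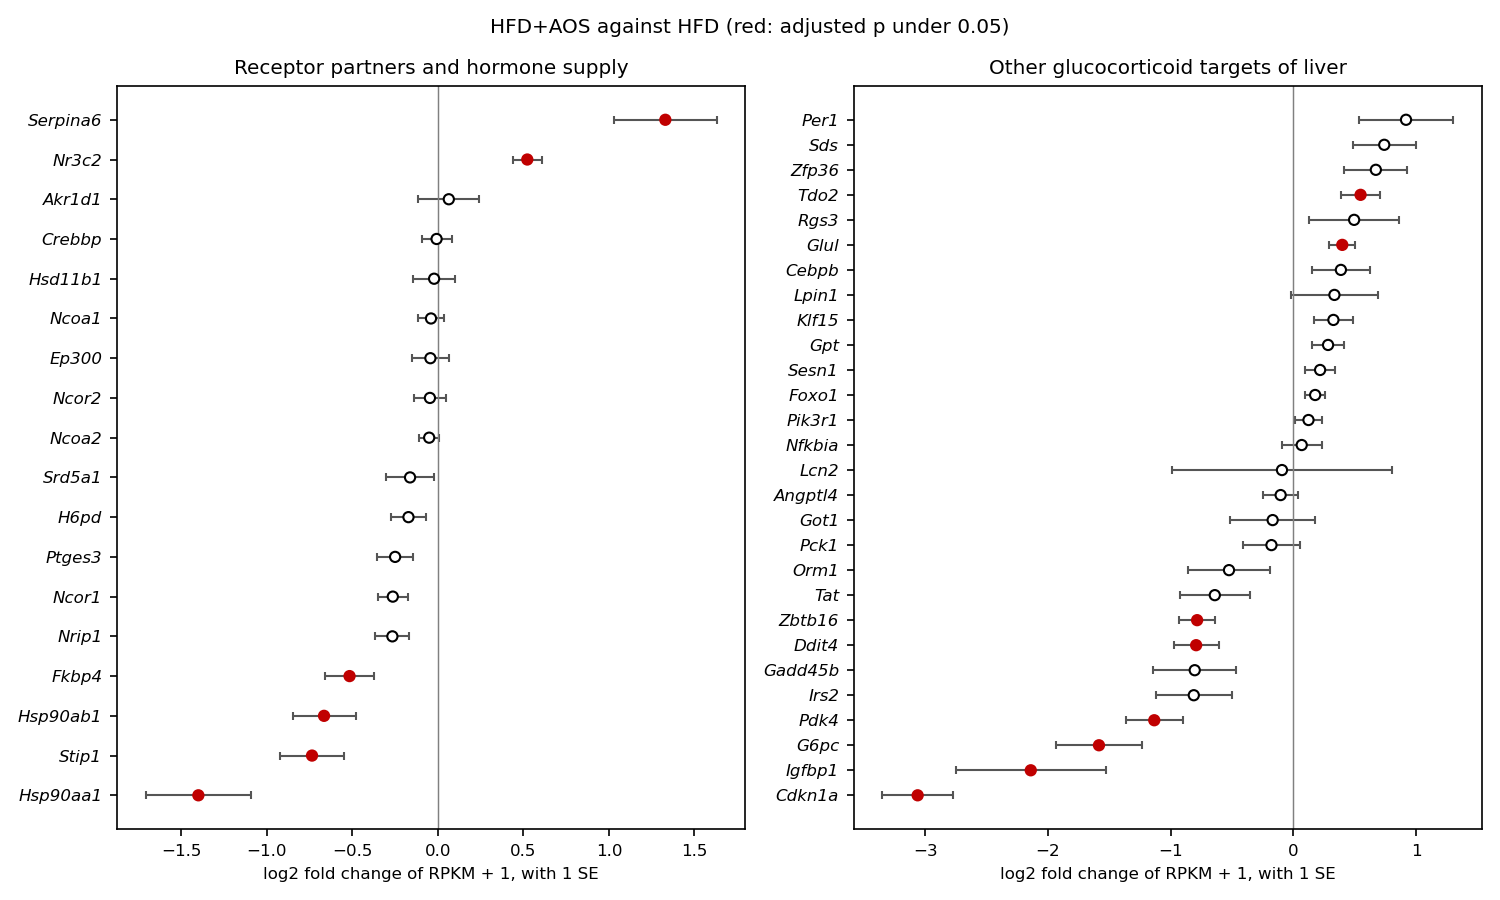
Log2 fold change of RPKM + 1 in HFD+AOS against HFD, with 1 SE, for 18 genes of the receptor's partners and hormone supply (left) and 28 further liver targets (right), ordered by value. Red points are called at an adjusted p under 0.05: 2 higher and 4 lower on the left, 2 higher and 6 lower on the right. Of all genes, 4.17% were called higher and 4.58% lower.

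In A10-FMT against HFD, 1 of the 28 rose and 4 fell, beside 2.62% and 3.98% of all genes. Per1 rose (6.66, 6.93 and 5.08 against 0.56, 1.54 and 2.53 RPKM, log2 1.57, limma adjusted p = 0.0243). It is a clock gene as well as a target. Cdkn1a (log2 -3.0, adjusted p = 1.95e-05), Pdk4 (log2 -1.34, adjusted p = 0.00293), Igfbp1 (log2 -2.51, adjusted p = 0.0233) and Ddit4 (log2 -0.65, adjusted p = 0.0450) fell. At the same threshold Cdkn1a was called in 12 of 12 alternatives, and at the cut-offs of the study too, and Pdk4 in 11, against 6 for Igfbp1, 5 for Per1 and 2 for Ddit4. Igfbp1 was lost without HFD replicate 2 or 3 or A10-FMT replicate 2 (adjusted p up to 0.118). Per1 and Ddit4 were lost without HFD replicate 1 or 2 or A10-FMT replicate 1 or 2 (up to 0.0924 and 0.176), and Ddit4 without HFD replicate 3 too. In A10-FMT against Con-FMT, Cdkn1a fell (log2 -2.13, adjusted p = 0.00134) and was the 1 gene of the 28 called, beside 1.68% of all genes. Angptl4 (log2 0.53, adjusted p = 0.0696) and Ddit4 (-0.54, adjusted p = 0.152) came next. In Con-FMT against HFD limma called 0 (5 before adjustment, beside 6.63% of all genes). Nearest were Zbtb16 (log2 -0.53, adjusted p = 0.509), Pdk4 (-0.80, adjusted p = 0.529) and Cdkn1a (-0.87, adjusted p = 0.623).

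Against Con, 0.133% of all genes were called in AOS and 0.381% in HFD livers. Of the 28 targets, Angptl4, an inhibitor of lipoprotein lipase, was the 1 that rose, both with AOS and with the HFD. It was at 17.31, 25.04 and 21.28 RPKM in Con, 45.08, 46.09 and 45.34 in AOS (log2 1.08, limma adjusted p = 0.0103) and 39.36, 44.21 and 36.48 in HFD (log2 0.90, adjusted p = 0.0240). The calls held in 8 and 7 of 12 alternatives, and both were lost without Con replicate 1 and without Con replicate 3, the first also without AOS replicate 3 and the second without HFD replicate 2, with an adjusted p of up to 0.0869 and 0.121. With the third liver of both regular-diet groups left out they were lost too. Lcn2 fell in HFD against Con (log2 -4.46, adjusted p = 0.0448), held in 3 of 12 with the losses given above, and Orm1, another acute-phase gene, had a log2 of -1.34 (adjusted p = 0.0928). In AOS against Con, Zbtb16 (log2 0.71, adjusted p = 0.0710) and Lcn2 (-3.82, adjusted p = 0.0869) came next. The AOS effect differed between the diets for 3 of the 28, beside 0.504% of all genes. These were Zbtb16 (log2 -1.50, SE 0.21, adjusted p = 0.00209), Cdkn1a (-2.74, SE 0.41, adjusted p = 0.00349) and Angptl4 (-1.18, SE 0.20, adjusted p = 0.00906). Zbtb16 was at 3.64, 2.04 and 2.55 RPKM in AOS and at 1.28, 1.32 and 1.15 in Con livers, above Con on the regular diet, while on the HFD it was lower with AOS.

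The genes most like a member over the 18 libraries were named by Pearson's r on log2(RPKM + 1), as a description. For Nr3c1 these were Cisd1 (0.932), an iron-sulfur protein of mitochondria, Tmem131l (0.902) and Trim26 (0.900). For Tsc22d3 they were Rpl7l1 (0.877), Trmt10c (0.868) and Tat (0.860), the tyrosine aminotransferase named above. For Mt1, added after its values were seen, they were Hpx (0.910), the haem-binding acute-phase protein hemopexin, Cd14 (0.892) and Ccl6 (0.883). Spearman's rho with Mt1 was lower, at 0.730, 0.606 and 0.707, and Con replicates 1 and 3 stood far above the other livers for Mt1. For the genes named with Nr3c1 and Tsc22d3, rho was 0.833 to 0.926.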

How the data were processed

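Liver RNA of 18 mice was sequenced on an Illumina HiSeq. According to the methods, the authors aligned reads to a reference gene set using SOAPaligner and turned read numbers into RPKM, which were deposited with 2 decimals. The submitters' processing notes list Bowtie 0.12.2 and mm10 instead, so the aligner is unsettled. Annotation and strand are not given in the sources used here, and the file header names no unit. Unstranded reads of overlapping genes (Fkbp5, Mt2, Dusp1, Cebpd, Errfi1) could not be told apart. Fkbp5, Dusp1 and Klf9 also overlap genes on their own strand, whose reads the strand would not separate.

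The fit kept the 10507 of 17109 expressed genes that reached 1 RPKM in 3 or more libraries. Groups came from the labels. Log2(RPKM + 1) was fitted with limma 3.58.1 (R 4.3.3), a mean per group and eBayes with trend, two-sided, Benjamini-Hochberg over all genes, called at an adjusted p under 0.05. DEGseq, named in the methods, needs read numbers and was not run; its cut-offs were tried. The fit was tested on simulated data. Python 3.11.15 with pandas 2.3.3 made the tables. The members and lists were chosen with earlier results of these data known. Named from the lists were the genes called and those with the smallest p; Tat and the acute-phase genes Saa1, Saa2 and Hp were added after their values were seen. Alternatives were equal library medians, a pseudocount of 0.1, no filter, only the groups compared, a replicate block, the third Con and AOS libraries left out, the cut-offs, and each library left out in turn.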

Additional observations from a re-analysis of the deposited data

How the results depend on the processing

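The 1 member call, Tsc22d3 in HFD+AOS against HFD, was lost (0 members called) with no filter, with only the groups compared, without the third libraries of Con and AOS and at the cut-offs of the study, and members called went from 0 to 1 with single libraries left out. They went from 0 to 2 in HFD against Con, from 0 to 1 in A10-FMT against HFD, in A10-FMT against Con-FMT, in AOS against Con and for the difference between diets. The cause was not tested.

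Counts over all genes moved more. In HFD against Con (40 genes) it was 26 with no filter, 2 with only the groups compared, 5 with the replicate block, 0 without the third libraries and 0 at the cut-offs, and from 0 to 178 with single libraries left out. For A10-FMT against HFD (693) the count was 1070 with equal medians, 78 with only the groups compared, 395 without the third libraries, 39 at the cut-offs, and from 271 to 1218. In Con-FMT against HFD (1) it was 2 with a pseudocount of 0.1, with no filter, with only the groups compared and with the block, 0 at the cut-offs, and from 1 to 13. In A10-FMT against Con-FMT (177) it was 100 with no filter, 4 with only the groups compared, 82 without the third libraries, 10 at the cut-offs, and from 51 to 564. In AOS against Con (14) it was 41 with only the groups compared, 0 without the third libraries, 0 at the cut-offs, and from 0 to 132. In HFD+AOS against HFD (919) it was 435, 496 and 35 under these settings, and from 320 to 1282. For the difference between diets (53) it was 137, 15 and 4, and from 29 to 186.

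Of 70 member values, 29 changed direction in at least 1 alternative, each of them with single libraries left out. Their adjusted p was 0.652 or more, and their log2 between -0.63 and 0.43. In HFD against Con the log2 ranged from -0.056 to 0.56 for Sgk1, -0.37 to 0.55 for Dusp1, -0.011 to 0.29 for Klf9, -0.021 to 0.32 for Cebpd and -0.015 to 0.45 for Errfi1. In A10-FMT against HFD the log2 ranged from -0.41 to 0.083 for Tsc22d3, -0.54 to 0.078 for Sgk1, -0.72 to 0.41 for Mt1, -1.32 to 0.026 for Mt2, -0.52 to 0.40 for Dusp1, -0.092 to 0.35 for Klf9 and -0.049 to 0.42 for Errfi1. In Con-FMT against HFD the log2 ranged from -0.012 to 0.049 for Nr3c1, -0.17 to 0.32 for Tsc22d3, -0.52 to 0.37 for Mt1, -0.47 to 0.44 for Dusp1 and -0.058 to 0.28 for Cebpd. In A10-FMT against Con-FMT the log2 ranged from -0.71 to 0.43 for Mt1, -0.63 to 0.72 for Mt2, -0.16 to 0.14 for Dusp1 and -0.26 to 0.18 for Klf9. In AOS against Con the log2 ranged from -0.31 to 0.26 for Tsc22d3, -0.31 to 0.53 for Dusp1 and -0.038 to 0.22 for Cebpd. In HFD+AOS against HFD the log2 ranged from -0.0001 to 1.04 for Mt2 and -0.61 to 0.31 for Dusp1. For the difference of the AOS effect between diets it ranged from -0.061 to 0.019 for Nr3c1, -0.71 to 0.22 for Dusp1 and -0.13 to 0.17 for Klf9. Other settings gave 5 changes of direction. With equal medians Dusp1 was at -0.023 in HFD against Con and at 0.039 in A10-FMT against HFD, where a pseudocount of 0.1 gave 0.017. Tsc22d3 in AOS against Con was at 0.076 without the third libraries. Nr3c1 was at 0.072 for the difference between diets with equal medians.

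The labels do not say that the replicate numbers pair the livers. Same-numbered livers had correlations from -0.177 to 0.225, with 0 comparisons above 0.1 throughout. With 3 livers a group, such correlations cannot exclude a shared cage, day or batch. With the replicate block 1 member, Tsc22d3, was called. With 3 livers a group and no read numbers, changes of low genes such as Cebpd may not have been detectable.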
